A study of Mus musculus with 3 samples.

Results

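The pluripotency factors examined here were 10 mouse genes, Sall4, Dppa2, Dppa3, Dppa4, Dppa5a, Tfap2c, Pou5f1 (Oct4), Nanog, Sox2 and Klf4. They were taken by gene symbol, and every probe that the array's annotation gives to one of these symbols was included. 9 of the 10 genes had at least 1 probe, out of 16593 genes on the array, and together they had 21 of its 25697 probes. Dppa2 had no probe under its symbol or gene ID and was not analysed here. The study compared developmentally incompetent with competent 2-cell embryos on Illumina BeadChips, arrays of beads that carry probes for known transcripts. Embryos of NSN (not surrounded nucleolus) oocytes were on 2 arrays, called 2-cell NSN-a and -b. These oocytes have no heterochromatin ring about their nucleolus, and were taken from ovaries of young PMSG-primed females and matured in culture. The 1 array named 2-cell ctrl had embryos of competent MII eggs, which were ovulated. The strain label was F1B6C3H (B6C3F1 in the methods) for all 3 arrays, and all embryos came from in vitro insemination with B6C3F1 sperm and were collected on the day after. Since oocyte type goes together with maturation in culture, these cannot be told apart here. How many embryos each array held, and whether the pair of 2-cell NSN arrays came from separate pools, is not given in the sources used here, and their spread may be technical.

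In embryonic stem cells OCT4, SOX2 and NANOG form a circuit of transcription factors that bind their own and each other's genes, and KLF4 acts beside them and, with OCT4 and SOX2, in reprogramming. SALL4, a zinc finger protein of the spalt family, and TFAP2C (AP-2 gamma), a factor of trophectoderm and of the germ line, work around this circuit. The DPPA proteins are named for their expression in pluripotent cells but are not one family. DPPA2 and DPPA4 are paired chromatin proteins with a SAP domain, DPPA3 (STELLA) is an egg protein that guards the DNA methylation of the maternal genome, and DPPA5 carries a KH domain of the type that binds RNA.

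The deposited values are signals on a linear scale from which the background was subtracted, so a probe without signal scatters around 0. A signal was called above background where it reached the level at which the study's detection p value was 0.01, which was 8.57 on 2-cell NSN-a and 6.10 on 2-cell ctrl. No detection p value was held for 2-cell NSN-b, and a limit of 8.28 was assumed. It is the 2-cell NSN-a limit multiplied by the ratio of both arrays' spreads, each measured on signals under the array median. A probe was called lower or higher when it was above background on both 2-cell NSN arrays or on the 2-cell ctrl array and the groups differed at least 1.5-fold. For this purpose each signal below its limit was raised to the limit, so that a fold against an array below background is a lower bound. On the whole array 1.05% of genes were above background on 2-cell NSN-a, 1.11% on 2-cell NSN-b and 5.62% on 2-cell ctrl. Of 13 oocyte and early embryo markers on the array, 7 were above background on 2-cell ctrl. Of these, 5 were lower and 0 higher in 2-cell NSN, beside 44.4% and 8.32% of all genes above background. The summed signals of the 13 markers were 48.1 and 47.5 on the 2-cell NSN arrays and 284.8 on 2-cell ctrl. Bmp15, an oocyte growth factor gene, was at least 12.1-fold lower. Of 8 genes typical of the 2-cell stage, 2 were above background and 1, Tdpoz1, was lower, with summed signals of 10.2 and 3.59 on the 2-cell NSN arrays and 39.0 on 2-cell ctrl. Bmp15 (101.9) and Oosp1 (94.0) made up most of the first sum on 2-cell ctrl, and Tdpoz1 (24.7) most of the second. The other 2-cell gene above background, Hspa8, was not called, with 7.93 and 4.62 on the 2-cell NSN arrays and 8.33 on 2-cell ctrl. Whether a marker was called depended on the limits. The uncalled oocyte markers Zp3 and Tle6 were also dimmer on the 2-cell NSN arrays, Zp3 with 0.393 and 0.826 against 11.3 on 2-cell ctrl. For Tle6 these were 1.25 and 3.99 against 6.26. With limits at a detection p value of 0.05, 7 of the 13 oocyte and early embryo markers were lower and 0 higher, beside 5.53% and 1.28% of all genes. The part of the markers in the results below was not tested. No marker was above background among 13 of cumulus and granulosa, 8 of sperm or testis, and 3 of blood. Summed over each list, the cumulus and granulosa signals were 9.98 and 4.83 on the 2-cell NSN arrays and 4.80 on 2-cell ctrl, those of sperm and testis 1.20 and 8.32 against 2.05, and those of blood 3.48 and -0.830 against 5.69.

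In 2-cell NSN embryos Sall4, Tfap2c, Dppa4 and Dppa5a were at least 1.5-fold lower than in 2-cell ctrl embryos, and none of the factors was higher. These were 4 of the 9 genes on the array and 4 of the 5 above background, each taken at its brightest probe. Over all 16593 genes 2.54% were called lower, and over the 950 genes above background in either group 44.4%. Dppa3 was above background on 2-cell ctrl but was not called, and Pou5f1, Nanog, Sox2 and Klf4 were below background on all 3 arrays. No gene among the members was higher, beside 0.476% of all genes and 8.32% of those above background. By probe, 7 of 21 were above background on 2-cell ctrl, beside 4.23% of all probes. A single probe, of Sall4, was also above background on 2-cell NSN-a, beside 0.751% of all probes, and on 2-cell NSN-b, beside 0.790% of all probes. Of the 7 probes, 5 were called lower, beside 1.88% of all probes and 43.7% of the 1106 probes above background, and 0 were called higher, beside 0.331% and 7.69%. As the 6 other probes passed only through the control array, their number lower is no evidence of its own. Fewer embryos on an array and less of these transcripts in each embryo cannot be told apart on these arrays.

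**Figure D1:**
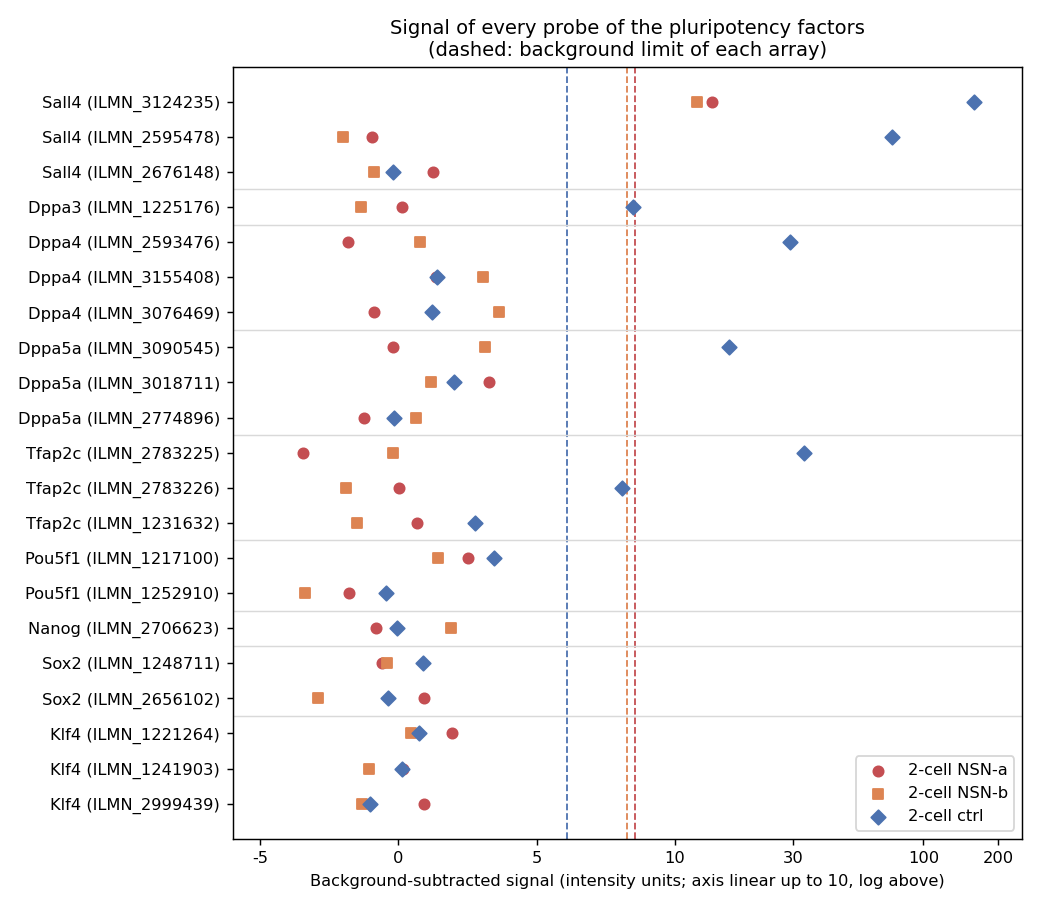
Background-subtracted signal (horizontal axis, intensity units, linear up to 10 and logarithmic above) of each of the 21 probes on 2-cell NSN-a (circles), 2-cell NSN-b (squares) and 2-cell ctrl (diamonds), with the background limit of each array dashed in its colour. 7 diamonds lie past the control limit, and only the top Sall4 probe has all 3 points past their limits.

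Sall4 was the only factor that could be measured in both groups. At probe ILMN_3124235 its signal was 14.1 (2-cell NSN-a) and 12.3 (2-cell NSN-b), against 160.2 on 2-cell ctrl, which is 12.2-fold lower. The 2-cell NSN arrays lay close to each other and far under the control. In limma over 136 probes that passed the limit of every array, the log2 difference was -3.61 with a standard error of 0.18 (Benjamini-Hochberg adjusted p = 0.000268), and 22.8% of these probes were lower and 43.4% higher at an adjusted p under 0.05. Sall4 had the fifth largest decrease among the 136. A further probe, ILMN_2595478, gave -0.941 and -2.00 on the 2-cell NSN arrays and 74.4 on 2-cell ctrl, at least 8.84-fold lower. The last probe, ILMN_2676148, stayed at background throughout, with 1.24 and -0.889 on the 2-cell NSN arrays and -0.191 on 2-cell ctrl. The annotation assigns the brightest probe to another Sall4 transcript than the other 2, which share theirs.

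Tfap2c was lower at its brightest probe, ILMN_2783225, with -3.44 (2-cell NSN-a) and -0.211 (2-cell NSN-b), against 33.2 on 2-cell ctrl, at least 3.94-fold lower. At ILMN_2783226 the signals were 0.0335 and -1.88 on the 2-cell NSN arrays and 8.08 on 2-cell ctrl. This control signal is above its own limit but under the limits of the 2-cell NSN arrays, so no fold can be given. ILMN_1231632, with 0.664 and -1.48 on the 2-cell NSN arrays and 2.78 on 2-cell ctrl, was below background on every array. The control array gave the highest signal at all 3 probes.

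Dppa4 was above background at 1 of its 3 probes. ILMN_2593476 gave -1.84 (2-cell NSN-a) and 0.769 (2-cell NSN-b), against 29.2 on 2-cell ctrl, at least 3.47-fold lower. The other 2 probes, assigned to the same transcript, were at background, ILMN_3155408 with 1.37 and 3.06 on the 2-cell NSN arrays and 1.40 on 2-cell ctrl, and ILMN_3076469 with -0.867 and 3.63 against 1.22. At both the control signal lay between those of the 2-cell NSN arrays, and the 3.63 passes the 2-cell NSN-b limit at a detection p value of 0.05 (3.18). In RefSeq Dppa4 lies next to Dppa2 on chromosome 16, and Morc1, on the far side of Dppa2, gave 0.843 and 0.209 on the 2-cell NSN arrays and -0.739 on 2-cell ctrl, below background on each.

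Dppa5a was likewise detected by 1 of 3 probes. ILMN_3090545 gave -0.199 (2-cell NSN-a) and 3.13 (2-cell NSN-b), against 16.5 on 2-cell ctrl, at least 1.96-fold lower. ILMN_3018711 (3.27 and 1.18 on the 2-cell NSN arrays, 2.01 on 2-cell ctrl) and ILMN_2774896 (-1.23 and 0.625 on the 2-cell NSN arrays, -0.155 on 2-cell ctrl) were at background, and there the control fell between the 2-cell NSN arrays. RefSeq places the pseudogenes Dppa5b and Dppa5c on the same chromosome, and hybridisation of their transcripts to these probes was not tested. Next to Dppa5a lies Ooep, which encodes a KH-domain protein of the egg's subcortical maternal complex and was above background on all 3 arrays, with 11.1 and 8.99 on the 2-cell NSN arrays and 24.1 on 2-cell ctrl, 2.42-fold lower. In limma over the 136 probes its log2 difference was -1.28 (standard error 0.21, adjusted p = 0.00705).

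Dppa3 was measured by 1 probe, ILMN_1225176. Its signal was 0.133 (2-cell NSN-a) and -1.34 (2-cell NSN-b), against 8.50 on 2-cell ctrl. The control signal is above the control limit of 6.10 but just under that of 2-cell NSN-a (8.57), so that the bound on the fold (1.01) reached no call. With the limits set at a detection p value of 0.05 (3.30 on 2-cell NSN-a, 3.18 on 2-cell NSN-b and 2.94 on 2-cell ctrl), Dppa3 was at least 2.62-fold lower and was called. At these limits 5.53% of all genes were lower and 1.28% higher. The bounds on the fold lower were then 23.0 for the Sall4 probe ILMN_2595478, 10.2 for Tfap2c, 9.01 for Dppa4 and 5.10 for Dppa5a. In RefSeq Dppa3 lies between Gdf3, a growth factor gene of pluripotent cells, and Nanog, and neither neighbour was above background.

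The 4 factors of the core circuit, Pou5f1, Nanog, Sox2 and Klf4, gave no signal above background at any of their 8 probes. Their signals ran between -3.39 and 2.52 on the 2-cell NSN arrays and between -1.01 and 3.45 on 2-cell ctrl. Pou5f1 gave 2.52 and 1.45 on the 2-cell NSN arrays and 3.45 on 2-cell ctrl at ILMN_1217100, and -1.78 and -3.39 against -0.453 at ILMN_1252910. The first is above the control limit at a detection p value of 0.05, with a bound of 1.06-fold, and is the only one of the 8 probes to pass a limit at either p value. The single Nanog probe, ILMN_2706623, gave -0.790 and 1.91 on the 2-cell NSN arrays and -0.0661 on 2-cell ctrl. Sox2 gave -0.596 and -0.425 on the 2-cell NSN arrays and 0.886 on 2-cell ctrl at ILMN_1248711, and 0.923 and -2.92 against -0.381 at ILMN_2656102. For Klf4 the 2-cell NSN signals of its 3 probes were 1.94 and 0.472 (ILMN_1221264), 0.172 and -1.07 (ILMN_1241903) and 0.921 and -1.32 (ILMN_2999439), beside control signals of 0.748, 0.117 and -1.01. Signals at background on these arrays do not show that the transcripts were absent.

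OCT4 binds DNA through a POU domain, often side by side with SOX2, and the Nanog promoter is a known place of this pairing in embryonic stem cells. Pou5f1, Nanog, Sox2 and Klf4 were all at background here. The start regions of Nanog and Sox2 are shown, the only genes of these with a match to the POU letters given below. They are the 300 bases around the annotated start in RefSeq (GRCm38.p6), chr6:122707239-122707538 on the plus strand for Nanog and chr3:34649745-34650044 on the plus strand for Sox2, written 5′ to 3′, with capitals for matches on either strand to the POU letters ATGCAAA and the SOX letters ACAATG.
Nanog: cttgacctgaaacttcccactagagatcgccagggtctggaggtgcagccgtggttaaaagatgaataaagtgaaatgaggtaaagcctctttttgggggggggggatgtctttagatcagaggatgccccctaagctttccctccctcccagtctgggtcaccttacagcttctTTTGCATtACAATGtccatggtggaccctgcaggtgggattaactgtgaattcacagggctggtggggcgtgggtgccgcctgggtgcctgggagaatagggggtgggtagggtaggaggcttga
Sox2: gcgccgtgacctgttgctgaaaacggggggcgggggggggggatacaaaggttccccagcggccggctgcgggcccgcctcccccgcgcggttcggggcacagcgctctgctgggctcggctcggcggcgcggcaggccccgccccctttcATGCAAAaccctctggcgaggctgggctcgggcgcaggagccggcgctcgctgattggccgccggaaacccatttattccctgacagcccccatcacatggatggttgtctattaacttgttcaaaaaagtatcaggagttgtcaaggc
The Nanog region held 1 POU and 1 SOX match, separated by a single base (TTTGCATNACAATG), and the Sox2 region 1 POU match. Neither POU nor paired letters were found in the regions of Pou5f1 or Klf4, and 1 of the 2 Pou5f1 regions held the SOX letters. Over 32851 regions of the same length, 4.63% held the POU letters and 12.6% the SOX letters, and 2 (0.00609%) held the paired letters. Both are start regions of Nanog that overlap and hold the same site. The letters were chosen after the Nanog region had been read, and a match is a description of the sequence only.

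To set all 21 probes on one scale, without a limit, log2(signal + 16) was fitted with limma over all 25697 probes and p values were adjusted over all of them by the Benjamini-Hochberg method. A difference on this scale understates the change of a low signal. The spread comes from the 2-cell NSN arrays alone, with the single control array assumed to vary like them, so the p values carry no replicate check on the control side. With 1 residual degree of freedom, each standard error rests mostly on the spread pooled over all probes, not on that of its own probe. The Sox2 probe ILMN_1248711 had an SD of 0.01 between the 2-cell NSN arrays and a standard error of 0.14. For the Dppa4 probe ILMN_3076469 these were 0.27 and 0.15. 7 of the 21 probes were lower in 2-cell NSN embryos at an adjusted p under 0.05 and 0 higher (7 and 0 at an unadjusted p under 0.05 from limma), where 3.09% of all probes were lower and 0.206% higher. The 7 probes are those above background on the control array. All of them except the brightest Sall4 probe were below background on both 2-cell NSN arrays, so here too their number lower is no evidence of its own. Between the 2-cell NSN arrays the SD on this scale was 0.01 to 0.27 for the 21 probes, with a median of 0.12.

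Sall4 at ILMN_3124235 averaged 4.87 ± 0.06 (SD, n = 2) in 2-cell NSN and 7.46 in 2-cell ctrl, and differed by -2.59 (standard error 0.10, adjusted p = 2.30e-18 from limma). At ILMN_2595478 it averaged 3.86 ± 0.07 in 2-cell NSN and 6.50 in 2-cell ctrl, and differed by -2.64 (standard error 0.13, adjusted p = 3.98e-16 from limma). As the second probe was below background on both 2-cell NSN arrays, its difference depends on the added 16 and is not set against that of the first. Tfap2c differed by -1.80 (standard error 0.14, adjusted p = 6.63e-11 from limma) at its brightest probe, with 3.82 ± 0.23 in 2-cell NSN and 5.62 in 2-cell ctrl, and by -0.68 (standard error 0.14, adjusted p = 0.00245 from limma) at ILMN_2783226. Dppa4 differed by -1.55 (standard error 0.14, adjusted p = 7.21e-10 from limma), with 3.95 ± 0.17 in 2-cell NSN and 5.50 in 2-cell ctrl. Dppa5a differed by -0.90 (standard error 0.14, adjusted p = 3.33e-05 from limma), with 4.12 ± 0.20 in 2-cell NSN and 5.02 in 2-cell ctrl. Dppa3, which the bound had left without a call, differed by -0.67 (standard error 0.14, adjusted p = 0.00232 from limma), with 3.94 ± 0.10 in 2-cell NSN and 4.61 in 2-cell ctrl.

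The 6 probes of Sall4, Tfap2c, Dppa4 and Dppa5a at background on 2-cell ctrl had log2 differences between -0.27 and 0.06, and the lowest adjusted p among them was 0.790 from limma. The probe of Tfap2c at -0.27 (standard error 0.15) had the largest of these differences. The 8 probes of Pou5f1, Nanog, Sox2 and Klf4 had log2 differences between -0.22 and 0.07, each with an adjusted p of 0.999 from limma. For Pou5f1 the difference was -0.11 (standard error 0.14) at ILMN_1217100 and -0.22 (standard error 0.17) at ILMN_1252910, and for Nanog 0.05 (standard error 0.15). The standard errors of the 21 probes ran between 0.10 and 0.17 on this scale.

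**Figure D2:**
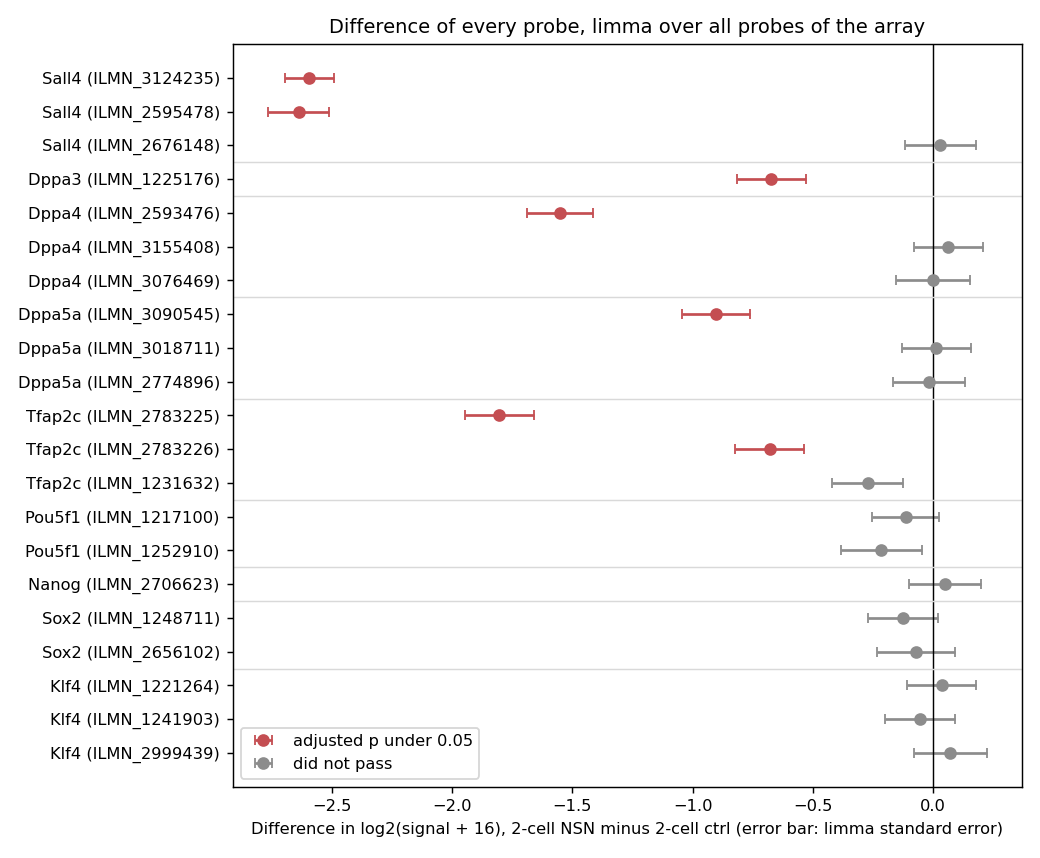
Difference in log2(signal + 16), 2-cell NSN minus 2-cell ctrl (horizontal axis), of each of the 21 probes, with the standard error from limma as bars and probes at an adjusted p under 0.05 in red. The 7 red probes lie between -2.64 and -0.67, and the 14 others between -0.27 and 0.07.

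Sall4 could be compared with other genes in its pattern, as its brightest probe was one of 136 above background on all 3 arrays. Likeness was taken as the distance between genes in 2 values, the log2 differences of 2-cell NSN-a and of 2-cell NSN-b from 2-cell ctrl, which were -3.51 and -3.71 for Sall4. Of 123 other genes the nearest were D030056L22Rik (distance 0.18, differences of -3.37 and -3.82), Bri3 (0.29, -3.70 and -3.50), Actb (0.59, -2.99 and -3.43), which encodes cytoplasmic actin, Rpl41 (1.11, -4.32 and -4.46), a ribosomal protein gene, and Nfyc (1.22, -2.72 and -2.77), a subunit of a CCAAT-binding factor. None of them is a member of the pluripotency lists used here. The search could hardly have found one, as at their brightest probes no other member and only Uhrf1 of the companion genes described below passed all 3 limits. Whether Sall4 is like other pluripotency genes thus cannot be read from these neighbours. Over the 136 probes the median ratio to 2-cell ctrl was 1.43 for 2-cell NSN-a and 1.39 for 2-cell NSN-b, so that the typical probe of this set was brighter on the 2-cell NSN arrays, whereas Sall4 was dimmer. The set was filtered unequally, as a probe had to pass 8.57 and 8.28 on the 2-cell NSN arrays but 6.10 on 2-cell ctrl. The part of this filter and of the scaling between arrays in the ratios was not tested.

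Beyond the members, 89 genes of 7 lists of companions were on the array, and 6 of them (Uhrf1, Dnmt1, Smad1, Mybl2, Thap11 and Fbxo15) were called lower and 0 higher in 2-cell NSN embryos. That is 6.74% of these genes, beside 2.54% of all genes lower and 0.476% higher. 13 of the 89 were above background, each of them on 2-cell ctrl and only Uhrf1 on the 2-cell NSN arrays too. The 6 lower genes among these 13 stand beside 44.4% of all genes above background being lower. In limma on log2(signal + 16) 11 were lower and 0 higher (18 and 0 at an unadjusted p under 0.05), beside 3.97% of all genes lower and 0.301% higher. The 6 genes are among the 11, with adjusted p values between 9.90e-13 and 1.69e-05 from limma. The median log2 difference was -0.01 over the 89 genes and -0.01 over all genes.

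Of 5 partners of STELLA in DNA methylation on the array, 2 were above background and both were lower, beside 44.4% of all genes above background, and Dnmt1 passed only through the control array. Uhrf1, which directs DNMT1 to hemimethylated DNA and is bound by STELLA, gave 32.5 (2-cell NSN-a) and 36.4 (2-cell NSN-b), against 115.7 on 2-cell ctrl, 3.36-fold lower at 1 of its 2 probes. In the same fit over 136 probes its log2 difference was -1.75 (standard error 0.14, adjusted p = 0.000773 from limma). Dnmt1, the maintenance DNA methyltransferase, gave 1.45 and 0.966 on the 2-cell NSN arrays and 23.1 on 2-cell ctrl, at least 2.75-fold lower.

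Of 19 transcription factors of naive pluripotency, 3 were above background and 2 were lower, beside 44.4% of all genes above background. The same share stands beside the counts of the targets and markers and of LIF and BMP signalling below. In all of these lists the genes above background passed only through the control array, so their numbers lower are no evidence of their own. Mybl2, a MYB factor of dividing cells, gave -2.52 and -1.17 on the 2-cell NSN arrays and 17.0 on 2-cell ctrl, at least 2.01-fold lower at 1 of its 3 probes. Thap11 (Ronin), a zinc finger protein needed by embryonic stem cells, gave -0.469 and 0.756 on the 2-cell NSN arrays and 15.0 on 2-cell ctrl, at least 1.78-fold lower. Of 17 targets and markers of pluripotent cells, 3 were above background and 1 was lower, Fbxo15, a target of OCT4 in embryonic stem cells, with 0.935 and -0.513 on the 2-cell NSN arrays and 14.7 on 2-cell ctrl, at least 1.74-fold lower. Of 13 genes of LIF and BMP signalling, 1 was above background and lower, Smad1, a transducer of BMP signals, with 1.75 and 1.66 on the 2-cell NSN arrays and 37.3 on 2-cell ctrl, at least 4.43-fold lower at 1 of its 3 probes.

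No gene was called in the remaining lists. Of 13 genes of the SALL family and of the NuRD complex, the histone deacetylase complex that SALL4 recruits, 2 were above background on 2-cell ctrl. They were Mta2, with 1.34 and 0.250 on the 2-cell NSN arrays and 7.19 on 2-cell ctrl, and Mta3, with -2.65 and -0.435 on the 2-cell NSN arrays and 6.68 on 2-cell ctrl, and both control signals were under the limits of the 2-cell NSN arrays. Of 12 AP-2 and trophectoderm factors 1 was above background, Yap1, with -3.19 and 1.22 on the 2-cell NSN arrays and 11.3 on 2-cell ctrl. Of 10 factors of primordial germ cells it was 1, Nanos2, with 2.83 and 2.45 on the 2-cell NSN arrays and 9.03 on 2-cell ctrl. In log2(signal + 16) the differences were -0.47 for Mta2, -0.65 for Mta3, -0.88 for Yap1 and -0.43 for Nanos2. Each of these genes passed only through the control array. The family members Sall1, Sall2 and Sall3 and the other AP-2 genes were below background on all 3 arrays.

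**Figure D3:**
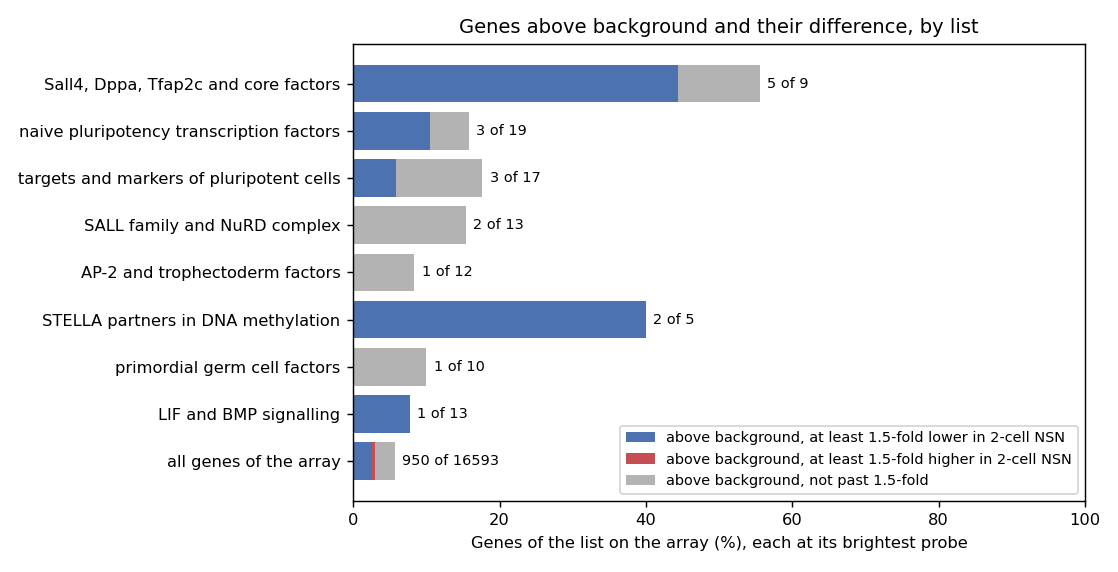
Share of the genes of each list on the array (horizontal axis, %, each gene at its brightest probe) that were above background, split into those at least 1.5-fold lower (blue), at least 1.5-fold higher (red) and not past the threshold (grey) in 2-cell NSN, with the number above background of the number on the array beside each bar. The members stand at 5 of 9, of which 4 are blue, and all genes of the array at 950 of 16593.

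Sall4 and Tfap2c were called lower under each alternative run, Dppa4 under all but 1 and Dppa5a under all but 3. With normexp background correction and quantile normalization the log2 differences shrank to -1.05 for Sall4 (adjusted p = 0.0106 from limma), -0.98 for Tfap2c and -0.87 for Dppa4, and the call of Dppa5a (-0.49) was lost. When each 2-cell NSN array was divided by its median ratio to the control, the log2 differences were -4.10 for Sall4, -2.47 for Tfap2c, -2.29 for Dppa4 and -1.47 for Dppa5a. With the probes of a gene averaged, Sall4 and Tfap2c were called and Dppa4 and Dppa5a, each with 2 of 3 probes at background, were not. Dppa5a was also not called at a fold of 2.

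**Figure D4:**
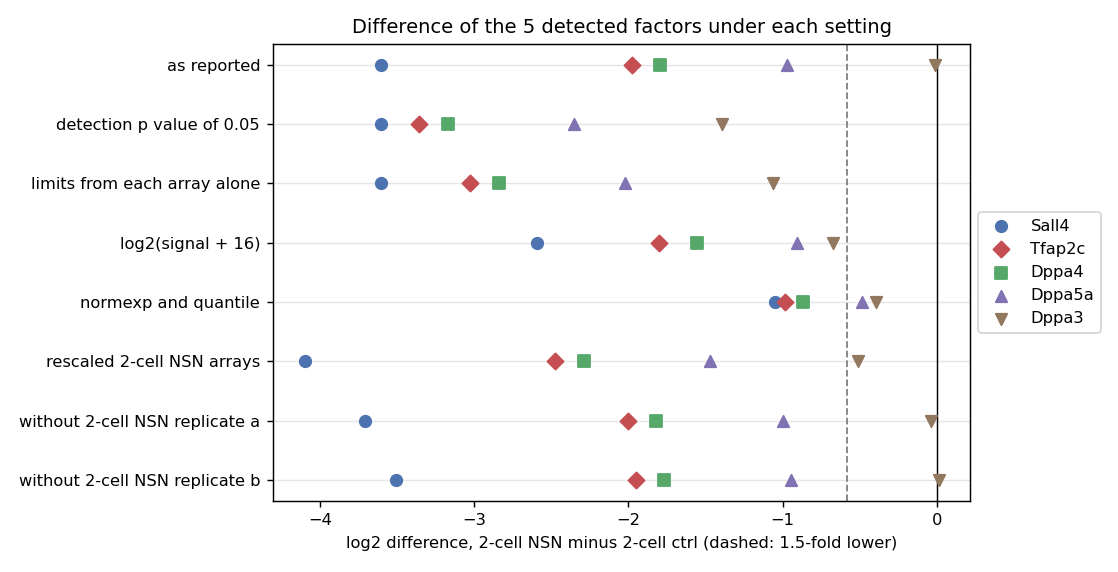
Log2 difference, 2-cell NSN minus 2-cell ctrl (horizontal axis), of Sall4, Tfap2c, Dppa4, Dppa5a and Dppa3 at their brightest probes under each setting, with 1.5-fold lower dashed. Sall4 lies between -4.10 and -1.05, and Dppa3 passes the dashed line only under the lower limits and with log2(signal + 16).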

How the data were processed

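RNA of 2-cell embryos was amplified from poly(A) tails (2 rounds in the methods, a single in vitro transcription in the labels), labelled with biotin and hybridised to Illumina mouse-8 BeadChips, 2 arrays of 2-cell NSN and 1 of 2-cell ctrl. The authors used BeadStudio 3 (submitters' processing notes) with background subtraction and rank-invariant normalization, and deposited the resulting signal intensity per probe on a linear scale. The genome build and the exact scaling between arrays are not given in the sources used here. The column medians were 0.0443 for 2-cell NSN-a, 0.0195 for 2-cell NSN-b and 0.0916 for 2-cell ctrl. 3 columns of unnormalized signals whose names match no sample were not used. The limits of 2-cell NSN-a and 2-cell ctrl were read from 896 rows, of 1188 held, of the study's table of signals and detection p values, which matched exactly 1 probe on both arrays within 0.002%.

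Probes were named from the platform annotation, which gives 1 symbol to 23978 of 25697 probes, more than 1 to none, and no symbol to 1719. List genes not found were looked up through RefSeq symbols and synonyms (GRCm38.p6), and 20 of 163 stayed without a probe. Genes are represented by their brightest probe over the 3 arrays. Signals under the limit were set to it, and log2 values of the 2-cell NSN arrays were averaged. limma 3.58.1 in R 4.3.3, with intensity trend on and 1 residual degree of freedom, was fitted to the 136 probes past the limit on every array, and to log2(signal + 16) of all probes after raising signals under -15 to that value. Other steps used Python 3.11.15, pandas 2.3.3 and numpy 2.4.6. The scripts were tested on simulated data. The number of arrays limits the precision. All members and their probes are named, and from each companion list every called gene, up to 4. The members, lists and rules were chosen with earlier results of these data known.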

Additional observations from a re-analysis of the deposited data

How the results depend on the processing

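No alternative called a factor higher in 2-cell NSN embryos. The number of factors lower at their brightest probe was 4, and 3 to 5 under the other settings except with the probes of a gene averaged, where it was 2 and the means of Dppa4 and Dppa5a include 2 probes each at background. By probe it was 4 to 7, beside 5. The log2 difference of Sall4 stayed negative and past the threshold in each alternative with a limma test, and without 2-cell NSN-a or 2-cell NSN-b it was -3.71 and -3.51, with no test. The log2 difference of Dppa5a was -0.97. It was -2.35 with limits at a detection p of 0.05, -2.02 with limits from the spread of each array alone, -0.90 with log2(signal + 16), -0.49 with normexp and quantile and -1.47 after dividing the 2-cell NSN arrays by their median ratio to the control. The call of Dppa5a was lost with normexp and quantile and at a fold of 2. Of the companion genes 6 were lower. They numbered 15 with limits at a detection p of 0.05, 13 with limits from each array alone, 11 with log2(signal + 16), 11 after the division and 3 with normexp and quantile. None of them was higher except 1 gene, Rbbp7 of the NuRD complex, with limits at a detection p of 0.05 and with limits from each array alone. Lower limits leave more room between the control signal and the floor, and the cause of the other changes was not tested. Over all genes 422 were lower and 79 higher, beside 917 and 212 with limits at a detection p of 0.05, 758 and 170 with limits from each array alone, 554 and 29 with log2(signal + 16), 270 and 131 under normexp with quantile scaling, 315 and 34 at a fold of 2, 573 and 33 after the division, and 333 and 60 with averaged probes. The settings for Dppa4, Tfap2c and Dppa3, the counts of higher companion genes and the fit of log2(signal + 16) to genes other than Sall4 were chosen after seeing the data. No paired analysis was possible because the control is a single array.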
